A study of Homo sapiens with 24 samples.

Results

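SNF5, a core subunit of the SWI/SNF chromatin remodelling complex, was placed here against the ATPase subunits BRG1 and BRM of the same complex. The members are the 6489 SNF5 peaks, of 80150 peaks in the 3 lists (51504 of BRG1 and 22157 of BRM). BRG1 and BRM peaks that shared at least 1 bp were merged into 52393 ATPase intervals, and an SNF5 peak was counted on an interval when they shared at least 1 bp. By this rule 6299 SNF5 peaks (97.1%, 96.6 to 97.5) lay on 4930 intervals, which is 9.41% of all intervals, and 190 lay on none.

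The cells were RWPE1, an immortal line derived from benign human prostate epithelium. They were infected with a lentivirus carrying SCHLAP1, a noncoding RNA linked to aggressive prostate cancer, and selected in blasticidin (2.5 ug/mL). All 3 subunits were profiled by chromatin immunoprecipitation and sequencing on MNase-cut chromatin of these SCHLAP1 cells, with 2 samples each. The series was made to ask if the complex keeps its place on the genome in cells that express SCHLAP1. Its LACZ control cells were profiled for histone marks. Each subunit has 1 list of positions without read counts or scores, so the depth is unknown. Values come without a spread over replicates, and no test between subunits was possible. Intervals in brackets are exact (Clopper-Pearson) binomial intervals at 95% confidence, or order-statistic intervals for medians. They treat peaks as independent, which neighbouring peaks are not, and cover counting error only.

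SWI/SNF complexes use the energy of ATP to slide or evict nucleosomes, mostly at promoters and enhancers. BRG1 and BRM are mutually exclusive motors, while SNF5 (gene SMARCB1) belongs to the core of the canonical and polybromo forms and binds the nucleosome on the face opposite the motor. SNF5 is absent from the non-canonical form of the complex, so a motor can sit on chromatin without it.

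The labelled cell type was checked on the genes named as nearest transcription start site (TSS). Of 8 basal epithelial markers, 7 had a peak in the BRG1 list, 7 in the BRM list and 2 (KRT5 and LAMB3) in the SNF5 list. Over all names in the 3 lists 21.7% had an SNF5 peak, so 2 of 8 is near that share. SNF5 peaks named none of 4 hepatocyte, 4 blood, 4 stromal and endothelial or 3 neuronal markers. BRG1 peaks named 1, 3, 2 and 2 of these and BRM peaks 0, 1, 0 and 1, so that a BRG1 peak alone did not separate the cell types. The SNF5 counts rest on too few markers to separate them. KRT8, a keratin of luminal cells, had 8 BRG1 and 4 BRM peaks and none of SNF5. The SNF5 list was not even over chromosomes. On the X chromosome none of 434 ATPase intervals held an SNF5 peak, where a count of 0 allows a share of up to 0.691% (3 of 434). On chromosome 22 this was 1 of 337 intervals, and none of the 324 intervals of chromosome 3 before position 53347572 held one. The sources used here do not say whether the SNF5 list is complete on these stretches, so the absence of an SNF5 peak there may not be read as absence of SNF5. The highest shares were 13.4% on chromosome 19 and 12.8% on chromosome 20.

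Promoter sequences show what the positions mean at the level of bases. The 250 bases before the RefSeq TSS (GRCh38.p14) are printed for 5 genes that differ in how SNF5 sits at the start site, with bases under an SNF5 peak in capitals and all others in lower case, 5′ to 3′ along the gene.
JUN (chr1:58784048-58784297, strand -): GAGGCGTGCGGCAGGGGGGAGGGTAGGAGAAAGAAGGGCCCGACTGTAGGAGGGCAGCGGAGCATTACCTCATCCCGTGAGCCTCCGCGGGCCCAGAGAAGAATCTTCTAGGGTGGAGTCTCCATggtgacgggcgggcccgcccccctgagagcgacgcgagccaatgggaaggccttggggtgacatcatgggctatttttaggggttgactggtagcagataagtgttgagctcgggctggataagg
ID1 (chr20:31605039-31605288, strand +): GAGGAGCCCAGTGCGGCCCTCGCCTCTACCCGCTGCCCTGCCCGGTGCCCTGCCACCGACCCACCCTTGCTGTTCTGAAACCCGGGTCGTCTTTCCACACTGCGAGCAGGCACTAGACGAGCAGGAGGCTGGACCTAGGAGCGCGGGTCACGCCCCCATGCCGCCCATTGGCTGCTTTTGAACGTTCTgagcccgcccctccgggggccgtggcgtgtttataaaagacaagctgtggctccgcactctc
RPL21 (chr13:27251308-27251557, strand +): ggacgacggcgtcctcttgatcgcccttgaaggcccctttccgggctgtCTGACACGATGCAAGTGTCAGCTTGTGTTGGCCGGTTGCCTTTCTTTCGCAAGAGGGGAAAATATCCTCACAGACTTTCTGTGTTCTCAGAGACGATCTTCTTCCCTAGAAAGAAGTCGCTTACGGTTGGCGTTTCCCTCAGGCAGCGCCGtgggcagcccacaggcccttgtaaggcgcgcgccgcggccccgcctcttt
FOS (chr14:75278578-75278827, strand +): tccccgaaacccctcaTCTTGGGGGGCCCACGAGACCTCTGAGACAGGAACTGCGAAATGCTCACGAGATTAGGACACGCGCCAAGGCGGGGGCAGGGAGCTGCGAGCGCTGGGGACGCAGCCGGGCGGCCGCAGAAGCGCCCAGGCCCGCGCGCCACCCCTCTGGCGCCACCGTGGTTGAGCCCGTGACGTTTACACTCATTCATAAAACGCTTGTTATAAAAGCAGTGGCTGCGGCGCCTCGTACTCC
MDM2 (chr12:68807922-68808171, strand +): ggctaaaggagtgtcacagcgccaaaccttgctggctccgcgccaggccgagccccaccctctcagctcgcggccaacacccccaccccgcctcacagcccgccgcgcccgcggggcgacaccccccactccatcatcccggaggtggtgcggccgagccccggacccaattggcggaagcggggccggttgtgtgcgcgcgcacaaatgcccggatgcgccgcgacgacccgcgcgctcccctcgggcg
JUN, ID1 and RPL21 had SNF5 peaks on both sides of the RefSeq start. For JUN, an AP-1 transcription factor, the nearest peak midpoints lay at -201 and 101 bp from the RefSeq TSS, and none of the 125 bases before the start were under a peak. The deposited annotation uses its own start sites and gives these peaks distances of 76 and 378 bp. These distances meet on a start upstream of the RefSeq one, and both peaks lie downstream of it. For ID1, an inhibitor of basic helix-loop-helix factors, they lay at -234 and 416 bp, and the last base under SNF5 was at -63. For RPL21, a protein of the large ribosomal subunit, they lay at -126 and 210 bp with 151 of the 250 bases under SNF5. FOS, the partner of JUN in AP-1, had 1 peak of 447 bp that covered the start, with its midpoint at -11 bp. MDM2, which encodes the ubiquitin ligase that degrades p53, had both its SNF5 peaks downstream of the RefSeq start, at 106.5 and 610.5 bp. The first of these peaks began at the base after the RefSeq start, so that the printed stretch holds no capitals. To its own start sites the deposited annotation gives these peaks distances of 1 and 232 bp.

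SNF5 was found mainly where both motors were called. Of the 52393 intervals, 17527 were made by BRG1 and BRM together, 33134 by BRG1 alone and 1732 by BRM alone. An SNF5 peak lay on 26.8% of the intervals with both motors (26.2 to 27.5), on 0.558% of those of BRG1 alone (0.481 to 0.645) and on 2.37% of those of BRM alone (1.70 to 3.20), against 9.41% of all intervals. These intervals also differed in width, with medians of 1254, 511 and 365 bp. Among intervals of 500 to under 1000 bp, the share was 11.6% (10.7 to 12.5) for both motors, against 3.71% for all intervals of that width.

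Within the intervals that both motors shared, SNF5 midpoints lay where the BRG1 and BRM peaks overlapped. Of 6052 SNF5 midpoints there, 94.4% (93.8 to 94.9) were under both peaks, a zone that made up 62.7% of the bases of these intervals. The zone of BRG1 only held 4.92% of midpoints on 34.9% of bases, and the zone of BRM only 0.711% on 2.41%. In the 2845 intervals of exactly 1 BRG1, 1 BRM and 1 SNF5 peak, the SNF5 midpoint was nearer to the BRM than to the BRG1 midpoint in 62.0% (60.2 to 63.8). The median distance was 133.5 bp to the BRM and 191.5 bp to the BRG1 midpoint. BRM peaks were narrower in these intervals (median 861 bp, against 1371 bp for BRG1), and relative to the peak's own width the median SNF5 midpoint lay at 0.33 of the way from centre to edge for BRM and at 0.30 for BRG1.

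Most intervals with SNF5 held 1 peak, and a long tail held many. There were 3882 intervals with 1 SNF5 peak, 842 with 2, 141 with 3, 41 with 4 and 24 with 5 or more, up to 14. Thus 1048 intervals held 2 or more, which is 2.0% of all intervals and 21.3% of those with SNF5 (20.1 to 22.4). All but 4 of these 1048 were made by both motors.

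Multiplicity went with width. The median width was 615 bp for intervals without SNF5, 1491.5 bp with 1 peak, 2127 bp with 2, 2858 bp with 3 and 3762 bp with 4. The share of intervals with an SNF5 peak was 0.600% under 500 bp and 79.2% (73.2 to 84.5) at 4000 bp or more. The density per base differed as well, with 1.54 SNF5 peaks per 100 kb of interval under 500 bp and 39.2 at 4000 bp or more. Among intervals of both motors the densities were closer, from 14.9 to 39.4 per 100 kb.

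**Figure D1:**
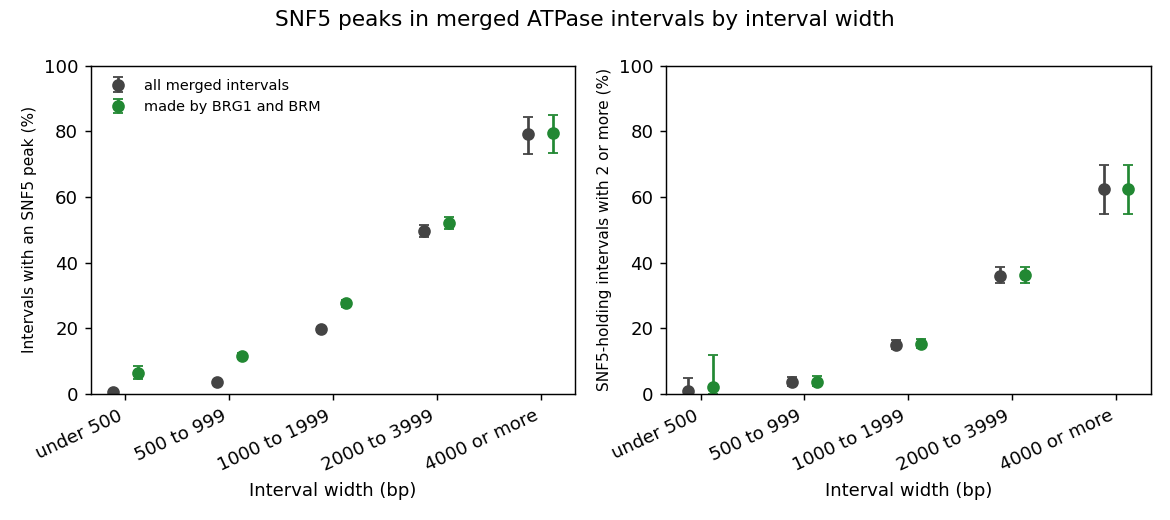
Share of merged ATPase intervals with an SNF5 peak (left, %) and share of SNF5-holding intervals with 2 or more SNF5 peaks (right, %) by interval width in bp. Points are shares and bars their 95% exact binomial intervals, for all intervals (grey) and those made by BRG1 and BRM (green). Both shares are highest in the widest bin, at 79.2% and 62.5% for all intervals.

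The SNF5 peaks themselves were of similar width whether alone (median 215 bp) or in groups of 2 (213 bp), 3 (209 bp) or 4 (212.5 bp), and wider in groups of 5 or more (251 bp). They covered a median of 15.5% of the interval when alone, 22.6% in pairs and 28.5% in groups of 4. In every list the smallest gap between neighbouring peaks was 51 bp and the narrowest SNF5 peak 151 bp, a width that 691 SNF5 peaks (10.6%) shared. With SNF5 peaks up to 500 bp apart joined into 1, the share of SNF5-holding intervals with 2 or more fell to 5.33%.

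SNF5 peaks lay toward the middle of the intervals. With 0 at the centre and 1 at the edge, the median offset of 6267 SNF5 midpoints was 0.31 (0.31 to 0.32), where an even spread would give 0.5. An offset of at most 0.5 was found for 74.3% (73.2 to 75.4), and 5.23% lay beyond 0.75. A peak that lies wholly inside an interval cannot have its midpoint at the edge. Measured over the range it can reach, the median offset was 0.37 and 65.7% lay within 0.5.

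The offset was smallest for lone SNF5 peaks (median 0.29, 206.25 bp from the centre) and larger in pairs (0.34) and in groups of 3 or more (0.38). For lone peaks it was 0.28 in intervals of 1000 to under 2000 bp and 0.40 (0.29 to 0.55) in the 63 intervals of 4000 bp or more. Promoter SNF5 peaks had a median offset of 0.31 (0.30 to 0.32), intron peaks 0.34 (0.30 to 0.40) and distal peaks 0.34 (0.31 to 0.37). The bounds of the intron and distal medians overlap that of the promoter peaks. All non-promoter peaks together had a median of 0.341 (0.320 to 0.368), above the upper promoter bound of 0.316. The share within an offset of 0.5 was 75.6% (74.4 to 76.8) for promoter and 66.2% (61.6 to 70.6) for intron peaks. It was 71.0% (66.7 to 74.9) for distal and 65.1% (56.2 to 73.3) for exon peaks.

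**Figure D2:**
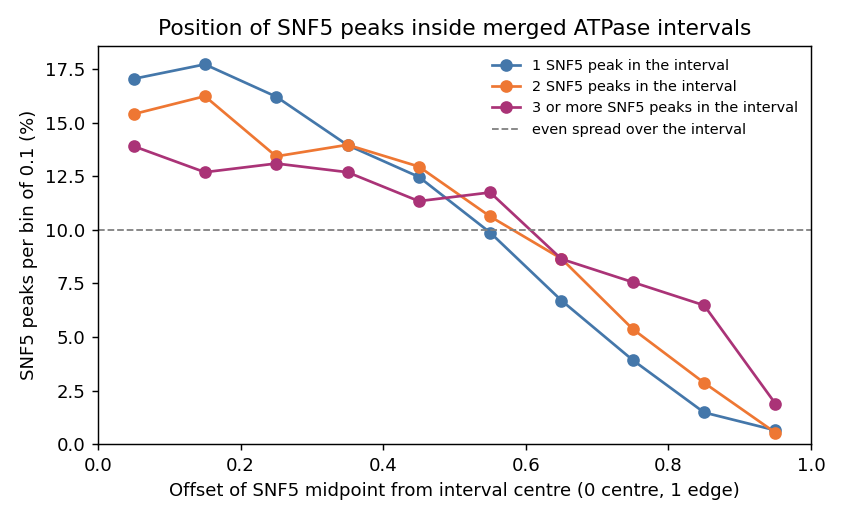
Offset of SNF5 midpoints from the interval centre (x, 0 centre and 1 edge) against the share of SNF5 peaks in each bin of 0.1 (y, %), for intervals with 1, 2 and 3 or more SNF5 peaks. The dashed line at 10% is an even spread, and lone peaks stand at 17.0% in the innermost bin and 0.649% in the outermost.

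The 1 bp rule left few cases near its limit. The smallest overlap was 6 bp, for an SNF5 peak at the promoter of CANX (chromosome 5, 179678150 to 179678638). Just outside, an SNF5 peak at DNAJC4 (chromosome 11, 64230865 to 64231031) lay directly beside an interval with no base shared and a gap of 0 bp. Of all SNF5 peaks, 94.7% lay wholly inside an interval and 155 reached past an edge, of which 12 touched 2 intervals. The 190 peaks on no interval were narrower (median 168.5 bp, against 214 bp) and farther from a TSS (median 2860 bp, against 151 bp), and 28.4% were annotated as promoter. Their median gap to the next interval was 2326 bp over the 189 with one on their chromosome, and 75 lay within 1000 bp.

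Relative to genes, SNF5 on the intervals lay mostly at promoters. By the deposited annotation 5220 of the 6299 peaks (82.9%, 81.9 to 83.8) were promoter peaks, 455 intron, 495 distal and 129 exon. The median distance to the TSS was 151 bp (144 to 160). Intervals with SNF5 were promoter sites for their motors as well. Of the BRG1 peaks in them 81.9% were promoter peaks, at a median of 215 bp from the TSS, against 32.3% and 3674 bp for BRG1 peaks of intervals without SNF5. For BRM these values were 80.9% and 186 bp, against 56.1% and 619 bp.

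In the same interval, SNF5 lay somewhat nearer to its TSS than the middle of the BRG1 peak did. Over 3660 intervals with 1 SNF5 and 1 BRG1 peak the median distance was 128 bp for SNF5 and 206 bp for BRG1, and SNF5 was the nearer in 58.0% (56.4 to 59.6). Over 3008 intervals with 1 SNF5 and 1 BRM peak it was 119 bp for SNF5 and 133 bp for BRM, and SNF5 was the nearer in 51.2% (49.4 to 53), an interval that includes 50%. Each peak was measured to its own nearest TSS. SNF5 and the motor named the same gene in 90.2% of the intervals compared for BRG1 and 91.9% of those for BRM. In 1929 single-SNF5 promoter intervals the distance columns of SNF5 and a motor met on 1 TSS. There the SNF5 midpoint was nearer to that TSS than the middle of the whole interval in 64.5% (62.3 to 66.6). The SNF5 peak had to be a promoter peak and the TSS its own nearest one, choices that favour SNF5. With the RefSeq TSS nearest to the interval middle, a choice that favours the middle, this was 52.6% (50.5 to 54.6).

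The direction of transcription was taken from RefSeq for intervals that cover start sites of 1 strand only, without chromosome 8. Lone SNF5 peaks were most often just downstream of the start. Of 1729 such midpoints 61.7% (59.4 to 64.0) were downstream, with a median of 62 bp (50.5 to 72) past the TSS. The middle of the same intervals lay farther downstream, at 157 bp (142 to 172). In bins of 100 bp, 370 midpoints lay from 0 to 100 bp and 316 from 100 to 200 bp, against 188 in the 100 bp before the start and 123 from 200 to 300 bp.

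Where several SNF5 peaks shared an interval, the positions around the start had more than 1 high bin. Of 1149 midpoints, 80 lay from -200 to -100 bp, 67 from -100 to 0 bp, 115 from 0 to 100 bp, 118 from 100 to 200 bp, 42 from 200 to 300 bp and 75 from 400 to 500 bp. In the same kind of interval the bin from 200 to 300 bp held 35 of 543 BRG1 midpoints and 64 of 685 BRM midpoints, against 54 and 65 from 100 to 200 bp. In intervals with exactly 2 SNF5 peaks the TSS lay between them in 213 of 406 (52.5%, 47.5 to 57.4), both lay downstream in 130 (32.0%) and both upstream in 63 (15.5%). Pairs around the start had median midpoints at -238.5 and 249 bp, and pairs downstream of it at 112.25 and 568.75 bp. The base of the TSS was under an SNF5 peak in 866 of 2225 intervals (38.9%, 36.9 to 41.0).

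**Figure D3:**
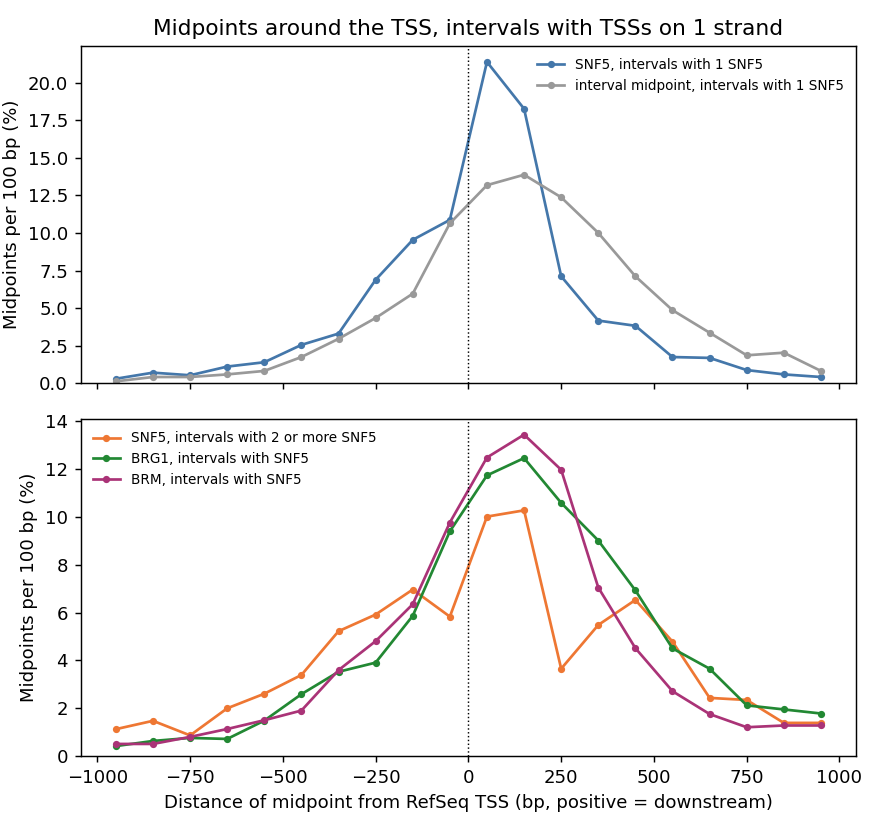
Distance of peak or interval midpoints from the RefSeq TSS (x, bp, positive downstream) against the share of midpoints per 100 bp (y, %). Lone SNF5 peaks have 21.4% of midpoints from 0 to 100 bp (top), and SNF5 peaks of intervals with 2 or more have 3.66% from 200 to 300 bp between higher bins on both sides (bottom, where the BRG1 and BRM lines cover all intervals with SNF5).

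Neighbouring SNF5 peaks in 1 interval were mostly less than 1000 bp apart. Over 1381 neighbouring pairs the median distance between midpoints was 495 bp (481.5 to 516.5), the middle 50% ran from 373 to 741 bp and the smallest was 207.5 bp. The bin from 300 to 400 bp held the most, with 281 pairs. The smallest width and gap in the list, 151 and 51 bp, set a lower limit to this distance. Where the second peak of a pair was a promoter peak the median was 481.5 bp (464 to 498), and where it was an intron peak 765.5 bp (635.5 to 984).

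**Figure D4:**
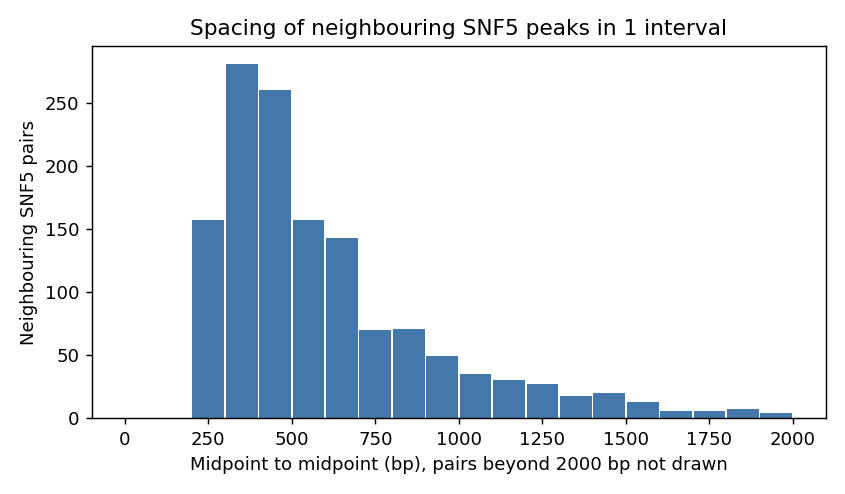
Distance between the midpoints of neighbouring SNF5 peaks in the same interval (x, bp, bins of 100 bp) against the number of pairs (y). The bars rise from 157 pairs at 200 to 300 bp to 281 at 300 to 400 bp, and 27 pairs beyond 2000 bp are not drawn.

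The widest-spaced pair lay in an interval of 6295 bp at AMPD3, an AMP deaminase, and AC080023.1 (chromosome 11), 4355.5 bp apart at 15.9% and 85.1% of its length. At DLX2, a homeobox factor, a pair 3836.5 bp apart was distal to the start. TLDC1 followed with 3511.0 bp. At TRAF4, an adaptor of receptor signalling, a pair 2872.0 bp apart lay 101 and 220 bp from annotated starts, and the pair at ARRDC3 was 2592.5 bp apart. Wide intervals could also hold a single SNF5 peak or none. At MAT2B, a regulator of methionine adenosyltransferase, an interval of 7200 bp held 1 SNF5 peak of 246 bp, 150 bp from the TSS, at 39.0% of its length. At CTBP2, a transcriptional corepressor, an interval of 6470 bp held 1 of 166 bp at 90.7%. IRX4, MAP3K14 and DNMBP had intervals of 6152, 5959 and 5771 bp with 1 promoter SNF5 peak each. The widest intervals without SNF5 were named for GPC1, a glypican (6266 bp), SLC2A1, the glucose transporter GLUT1 (6144 bp), RARG, a retinoic acid receptor (6040 bp), SH3PXD2A (5896 bp), and ANP32A with SPESP1 (5374 bp). Each was made by both motors.

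The intervals with the most SNF5 peaks were long stretches of both motors. There were 15 with 6 or more, from 4037 to 13760 bp wide, of which 7 lay on chromosome 20. The 10 described here are the 6 with 7 or more peaks and, of 9 tied at 6, the 4 widest. On chromosome 20, 28.6% of all SNF5-holding intervals had 2 or more peaks (23.3 to 34.3), against 21.3% over all. The first lay at PLEC, which encodes the cytolinker plectin of hemidesmosomes. Its 13760 bp (chr8:143933650-143947409) were built from 4 BRG1 and 4 BRM peaks and held 14 SNF5 peaks of 151 to 454 bp. The peaks ran from 4.52% to 72.3% of the length. Of these 14 peaks 7 were promoter peaks, 5 intron and 2 exon, at 179 to 5316 bp from annotated starts.

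The second, at ADRM1, a ubiquitin receptor of the proteasome, and AL354836.1, was the densest. Its 7018 bp (chr20:62301709-62308726) came from 1 BRG1 and 1 BRM peak and held 12 SNF5 peaks, which covered 54.5% of its bases. The peaks followed one another at 316.5 to 1006.0 bp, the last of them named for LAMA5 and lying across the interval's edge. The third and the fourth of the 10 belong to LAMA5, an alpha chain of laminins, and its antisense gene LAMA5-AS1. One of 11486 bp (chr20:62360662-62372147) held 9 SNF5 peaks from 3.57% to 91.0% of its length, with a stretch of 3084.0 bp between midpoints. The other, of 10727 bp, held 9 as well, of which 7 were named for LAMA5-AS1.

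The other 6 were as follows. At AL021578.1 and SDC4, a syndecan, 8 SNF5 peaks lay between 42.4% and 92.1% of 13194 bp, and none in the first part. At ID1 and MIR3193, 7 peaks covered 40.0% of 9697 bp, one of them 1474 bp wide. At ZMYND8, a reader of acetylated histones, all 6 peaks lay in the part from 54.8% to 91.1% of 10943 bp. At ZFAS1 and ZNFX1, 6 peaks lay over 8366 bp, 3 of them named for the small nucleolar RNA genes SNORD12 and SNORD12B and 1 for SNORD12C. At LINC00592 on chromosome 12, 6 distal peaks lay 15180 to 18250 bp from the named start. At ZFP36L1, an mRNA decay factor, 6 peaks covered 19.8% of 7465 bp on chromosome 14.

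**Figure D5:**
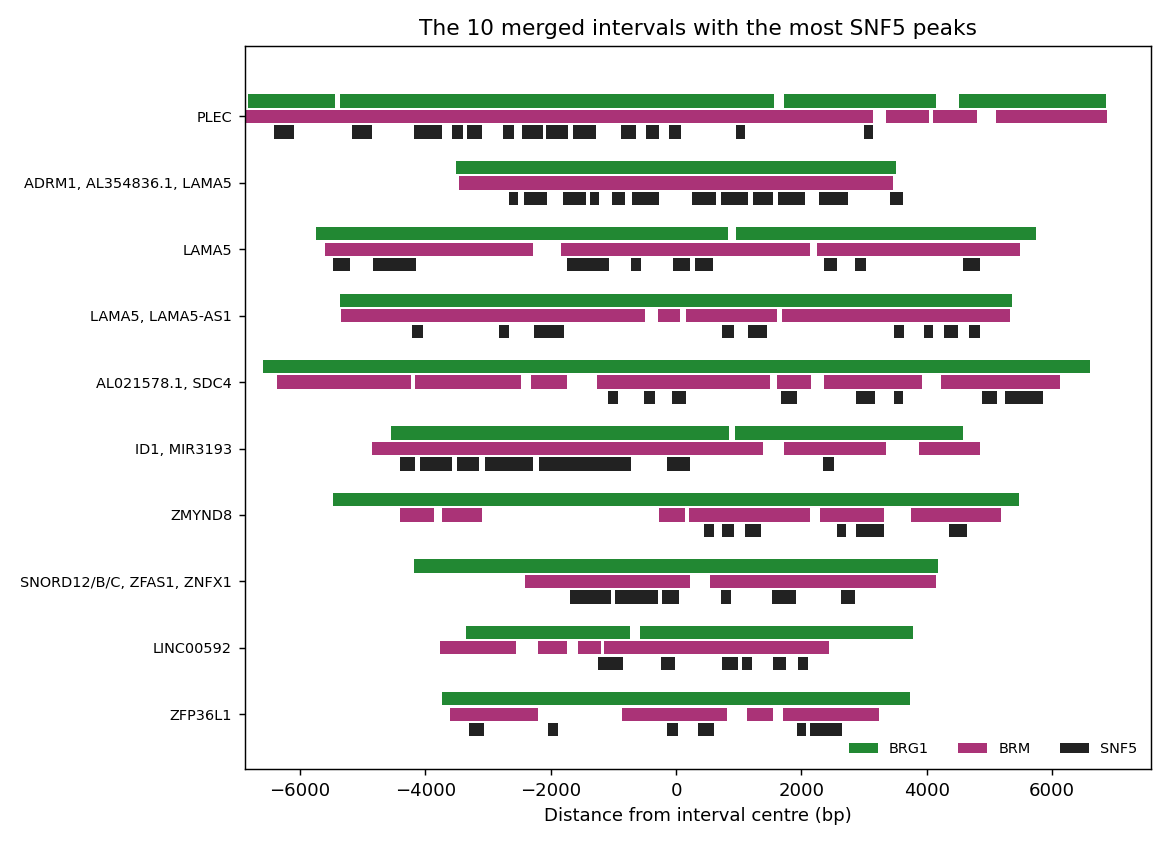
BRG1 (green), BRM (purple) and SNF5 (black) peaks in the 10 merged intervals with the most SNF5 peaks, drawn to scale against the distance from the interval centre (x, bp) with the named genes on the y axis. SNF5 peaks fill 54.5% of the ADRM1 interval and stay in the right part of the ZMYND8 and AL021578.1 intervals.

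By gene, 4873 names had at least 1 SNF5 peak, 21.7% of the 22440 names in the 3 lists, and 1058 had 2 or more, 4.71%. Of the latter, 767 had 2, 174 had 3, 65 had 4 and 52 had 5 or more. All SNF5 peaks lay in 1 interval for 684 (64.7%, 61.7 to 67.5), and in 2 or more intervals for 330. A promoter SNF5 peak was present for 955 (90.3%), and every SNF5 peak was a promoter peak for 688. Conversely, in 800 of the 1048 intervals with several SNF5 peaks (76.3%) all of them named 1 gene.

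Genes with the most SNF5 peaks fell into those with 1 packed interval and those with several. PLEC had 19, of which 14 shared the interval described, and LAMA5 had 18, of which 16 lay on 7 intervals over 65947 bp. RXRA, the retinoid X receptor that partners many nuclear receptors, had 11 in 4 intervals, with 3 at promoters and 8 in introns. ZMYND8 (8 peaks), ZFP36L1 (8) and LAMA5-AS1 (7) had 6, 6 and 7 in 1 interval. ANXA2, a calcium-dependent membrane-binding annexin, had 8 in 3 intervals, 7 of them at promoters and all within 1833 bp of a start. DNAJB12, a membrane chaperone cofactor, had 8 in 5 intervals, MIR4669 8, of which 7 lay on intervals, and LINC01962 6 in 3. The peaks of MIR4669 follow those of RXRA on chromosome 9, and both names share an interval of 6296 bp, so they are not separate loci. SLC7A5, a transporter of large amino acids, had 7 in 5 intervals, all in introns. TNS4, a tensin of focal adhesions, had 7 in 5 intervals, with 1 at a promoter. ID1 had 7 in 3 intervals, AC010997.3 7 in 2, LINC00592 7 in 2, and ADRM1 6 in 1. For NEAT1, the RNA scaffold of paraspeckles, 5 of 6 lay on 4 intervals, and for LINC01451 5 of 7 on 1.

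A pair of names had other patterns. All 11 peaks of FP325313.1 were distal, at 201408 to 223481 bp from the named start (chromosome 16, 34572932 to 34595247), and 8 of them lay on intervals of at most 735 bp. YAP1, the transcriptional coactivator of the Hippo pathway, had 8 SNF5 peaks in 7 intervals over 116920 bp. In 5 of these intervals the lone SNF5 peak of 303 to 441 bp had nearly the same margin to both edges, from 177 to 182 bp. Over all 3749 lone SNF5 peaks that lay wholly inside an interval, margins equal within 3 bp were found for 21, and the median margin was 580 bp. Of these 5 YAP1 peaks 3 were annotated as exon, against 129 of all 6299 SNF5 peaks on intervals. What these margins come from was not tested, and the count for YAP1 rests on these peaks. The peak at AP000942.2 next to YAP1 was another of the 21, with margins of 182 and 185 bp.

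Gene lists, chosen with earlier results of these data known, were counted against the share of 21.7% of names with SNF5 and 4.71% with 2 or more. Of 15 AP-1 genes, 10 had an SNF5 peak and 6 had 2 or more. JUN had 4 peaks in 2 neighbouring intervals, and ATF3, a stress-induced member, had 4 in 1 interval of 3324 bp. FOSB had 3 in 3 intervals, and FOS, FOSL2 and JUND had 2 each. BATF and BATF2 were named by no list.

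Of 24 basal epithelial genes, 14 had an SNF5 peak and 5 had 2 or more. The list includes all 8 basal markers of the cell type check, of which only 2 had an SNF5 peak, so the count depends on the genes chosen. Besides PLEC these were PKP1, a desmosomal plaque protein, with 5 in 4 intervals, SFN, the epithelial 14-3-3 protein, with 4 in 1 interval of 4667 bp, and ITGA3 and S100A2 with 2 in 1 interval each. TP63, the factor that defines basal cells, had 12 BRG1 peaks and no SNF5 or BRM peak, and KRT14 had 10 ATPase and no SNF5 peaks. EGFR, with 43 ATPase peaks, had 1 SNF5 peak.

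Feedback genes of growth factor signalling and p53 targets had comparable counts. Of 19 EGFR ligand and MAPK feedback genes 10 had SNF5 and 4 had several. DUSP6, a phosphatase that inactivates ERK, had 4 promoter peaks in 1 interval of 4853 bp, DUSP5 had 3, and DUSP10 and the ligand gene TGFA had 2. Of 15 p53 targets 9 had SNF5 and 5 had several, among them CDKN1A with 4 in 1 interval of 3340 bp, PHLDA3 with 4 in 2 intervals, GADD45A with 3, and MDM2 and PLK3 with 2.

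Of 34 listed genes of cytosolic large-subunit ribosomal proteins, 19 had SNF5 and 8 had several. The list leaves out part of the family, such as RPL36 and RPL27A with 4 SNF5 peaks each and RPL10A with 3. Among those listed, RPL13 had 4 in 2 intervals and RPL8 3 in 1. RPL7, RPL18, RPL21, RPL28, RPL31 and RPLP1 had pairs in 1 interval, every one of them at the promoter. Of 29 genes of SWI/SNF subunits, 28 were named by a motor and 6 by SNF5, with several SNF5 peaks for ACTB (4) and BICRAL (3). SMARCB1, the gene of SNF5 itself, had 2 ATPase peaks and none of SNF5, but lies on chromosome 22, where the SNF5 list is nearly empty. Listed genes on this chromosome, on the X chromosome and on the first part of chromosome 3 were kept in the counts of all gene lists. The 15 genes of other cell types are the same markers as in the cell type check above. Of them, 8 were named by a motor and none by SNF5.

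Base composition was compared over the RefSeq promoter windows (250 bases before to 50 after the TSS, without chromosome 8). The median GC content was 58.7% over all 34941 windows and 51% for those outside the intervals. It was 65.3% in intervals without SNF5, 66.3% with 1 SNF5 peak and 67.7% with 2. CpG dinucleotides numbered 14 per window over all, 25 without SNF5, 27 with 1 and 29 with 2. The difference went mostly with lying in an interval at all, and little with SNF5.

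Short motifs were searched on both strands. The ETS core CCGGAAG was in 10.2% of all windows, 16.6% (15.8 to 17.4) of those in intervals without SNF5, 22.6% (21.3 to 24) with 1 SNF5 peak, 20.3% (17.9 to 22.8) with 2 and 11.2% (7.94 to 15.3) with 3 or more. Among intervals of both motors of 1000 to under 2000 bp it was in 19.5% (18.3 to 20.9) without SNF5 and 25.9% (24 to 27.8) with 1. With 2 or more SNF5 peaks at that width it was in 24.2% (20.3 to 28.4), bounds that overlap those with 1. The TATA box TATAAA was in 11.6% of all windows, 5.30% without SNF5 and 3.82% (3.24 to 4.48) with 1. It was in 5.37% (4.09 to 6.9) with 2 and 10.3% (7.12 to 14.2) with 3 or more. In the intervals of matched width it was in 4.47% (3.82 to 5.19) without SNF5 and 3.09% (2.39 to 3.93) with 1. With 2 or more at that width it was in 3.8% (2.23 to 6.02), bounds that overlap both. Intervals with 3 or more were not counted alone at that width. The AP-1 site TGANTCA was in 7.72% of all windows, 6.64% without SNF5 and 4.11% (3.50 to 4.79) with 1. In the intervals of matched width it was in 4.97% (4.28 to 5.73) and 4.06% (3.25 to 5.00), bounds that overlap. The GC box GGGCGG was in 44.9% of all windows, 68.8% without SNF5 and 74.1% with 1, but in 73.1% and 73.2% at matched width. CCAAT was in 34.6%, 34.0% and 34.0%. A gene can have several windows, so these are not independent, and a match is a run of letters and not a shown binding site.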

How the data were processed

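Cells were fixed in 0.3% formaldehyde for 30 min, per the labels' protocols. Per the submitters' processing notes the tools were MACS2, Bowtie2, deepTools 2.5.2 and SAMtools, with the build hg38 and no role for each. What threshold and filter were used, and whether replicates were pooled, is not stated. The authors deposited 1 peak list per subunit with start, end and width in bp, annotation, nearest TSS and distance, per the file headers, and no count or score. The largest distance of a promoter peak was 998 bp. Merging, overlaps, offsets (midpoint to interval middle, over 0.5 of the width) and intervals were computed with pandas 2.3.3, numpy 2.4.6 and scipy 1.17.1 under Python 3.11.15, drawn with matplotlib 3.10.9, and tested on simulated data. Genes are names in the nearest-TSS column. The 31 names found on more than 1 chromosome (such as Y_RNA, with 11 SNF5 peaks) were left out of gene counts. Promoter sequences, strands and start sites are from RefSeq (GRCh38.p14), and motifs were fixed strings.

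Named were the 20 genes with the most SNF5 peaks (ties by summed SNF5 width, which took 3 of 11 genes with 6), the 10 intervals with the most (ties by interval width), the 5 widest without SNF5, the 5 widest-spaced pairs, the 5 widest with 1 promoter SNF5 peak, and list members with 2 or more. Other genes named, and the printed promoters, were chosen after their values were seen. Members and lists were chosen with earlier results of these data known. Alternatives were other overlap and merging rules, motors taken singly, wider or joined SNF5 peaks, and sets of chromosomes. Data on histone marks and on inputs were not used here.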

Additional observations from a re-analysis of the deposited data

How the results depend on the processing

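Of 91 values recomputed under alternatives, 46 stayed within their interval (for counts of names, within 1.5 times) and 45 did not. A direction, meaning a side of an even spread or split, exists only for some results. These are the median offset, the share of SNF5 peaks toward the interval middle and the share nearer the TSS. None of these turned, and for the other results a turn was not defined. No paired analysis was possible because each subunit has 1 list that names no replicate, so leaving out a replicate was not possible either. The cause of the moves was not tested.

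The share of SNF5 peaks on intervals was 96.6% with at least 50% of the peak inside, 94.7% with the whole peak inside, 96.1% on BRG1 and 91.9% on BRM peaks alone, 98.9% for the wider 50% of SNF5 peaks and 96.6% with SNF5 peaks up to 500 bp apart joined. The share of intervals with SNF5 was 9.15% for whole peaks, 21.9% of BRM peaks, 11.3% with motor peaks up to 500 bp apart merged, 5.39% for the wider SNF5 peaks and, in an alternative chosen after seeing the data, 9.67% without chromosomes 3, 22 and X. Intervals with 2 or more SNF5 peaks made up 19.0% on BRM peaks, 22.9% with merged motor peaks, 11.3% for wider and 5.33% for joined SNF5 peaks.

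The median offset was 0.32 on BRG1 and 0.36 on BRM peaks, 0.33 with merged motor peaks, 0.30 for wider, 0.29 for joined, 0.29 for lone and 0.34 for non-promoter SNF5 peaks, and 0.37 over the reachable range, which was chosen after seeing the data. In the same order the share within an offset of 0.5 was 72.9%, 68.0%, 71.3%, 76.8%, 76.9%, 77.4%, 68.3% and 65.7%. SNF5 was nearer the TSS than the interval middle in 55.9% on BRM peaks, 68.3% with merged motor peaks and 52.6% with RefSeq start sites. The median distance to the TSS was 136 bp for wider SNF5 peaks and 318 bp to RefSeq start sites. The promoter share was 84.0% on BRM peaks and 85.5% for wider SNF5 peaks. The median spacing was 466 bp on BRM peaks, 527 bp with merged motor peaks, 623.5 bp for wider, 1220.5 bp for joined and 575.5 bp for non-promoter SNF5 peaks. Names with 2 or more SNF5 peaks numbered 352 for wider and 480 for joined SNF5 peaks.

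The lists hold no reads, scores or replicates, so a missing SNF5 peak cannot be told from one under the calling threshold.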

Other observations

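Start sites on both strands went with more SNF5. Of the 50532 intervals outside chromosome 8, 9674 covered a RefSeq start site, 7616 of them on 1 strand only. An SNF5 peak lay on 46.8% (44.6 to 49.0) of the 2058 intervals with start sites on both strands and on 29.2% (28.2 to 30.3) of those with 1 strand. Among the holders, 27.4% (24.6 to 30.3) and 22.3% (20.6 to 24.1) had 2 or more SNF5 peaks. The SNF5-holding intervals with both strands were also wider, with a median of 1921 bp against 1662 bp, and the part of width in this was not tested.

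Chromosomes 5, 9 and 10 were near chromosome 20 in multiplicity. Of their SNF5-holding intervals 31.0% (26.3 to 36.0), 27.1% (22.3 to 32.4) and 27.9% (23.1 to 33.2) had 2 or more SNF5 peaks, while on chromosome 19, with the highest share of intervals with SNF5, this was 16.0% (12.1 to 20.5).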
